A study of Mus musculus with 22 samples.

Results

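The collagen genes of the fetal mouse urogenital sinus were examined, 42 of the 30102 genes for which the array platform holds a probe set with only 1 gene symbol. A gene counted as a collagen when that symbol had the form of an alpha chain name, Col followed by a type number, the letter a and a chain number. Where a gene had several probe sets, the 1 with the highest mean over the 22 arrays was used. Of the 42 collagens, 41 passed a filter on dim probe sets and were tested among 19050 genes. The filter asked for a value above the array's median on at least 5 arrays, and 40 of the 41 were above it on all 22. Col8a1 was above it on 20. Col10a1, the network collagen of hypertrophic cartilage, read 3.77 to 4.28 and was not tested. The probe sets of Col6a4 and Col7a1 carry several symbols and were not analysed here.

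Collagens are extracellular proteins in which alpha chains wind around each other into a rod-like helix. Fibrillar collagens assemble into the cables of connective tissue and cartilage, and the fibril-associated collagens with interrupted helices (FACIT) attach to those cables or to basement membranes. Type IV collagen forms the network of the basement membrane beneath every epithelium, type VI forms beaded filaments, types VIII and X form hexagonal lattices, the multiplexins XV and XVIII are proteoglycans of basement membrane zones, and a further class spans the cell membrane. In a developing gland the mesenchyme makes most of the fibrillar collagens. In cartilage SOX9 is known as a direct activator of Col2a1 and of other cartilage collagens.

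The tissue was epithelium of the urogenital sinus, the structure from which prostatic buds grow in males, of C57BL/6J fetuses at E16.75 (embryonic days). The 6 male knockouts and 5 female knockouts carried the genotype ShhCre/+; Sox9fl/fl, with Cre inserted at a Shh allele and both Sox9 copies floxed. Littermates of the genotype Shh+/+; Sox9+/fl, without Cre and with a floxed copy of Sox9 as well, gave 6 male controls and 5 female controls. Cre therefore acted where Shh is expressed, and the loss of Sox9, the presence of Cre and the changed Shh allele cannot be told apart. After trypsin and collagenase digestion, mesenchyme, bladder epithelium and urethral epithelium were taken off before total RNA was hybridised to Affymetrix whole-transcript arrays. The labels call the arrays of a group biological replicates but leave unsaid if RNA of single or pooled fetuses was used. The p-values measure the spread between these arrays.

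Values are given on the log2 scale of the deposited table, on which array medians lay between 5.1 and 5.27. Probe sets of different genes bind with different strength, so levels are compared between arrays only. Sox9 read 8.0 to 8.37 in male knockouts, against 9.05 to 9.61 in male controls, and 7.81 to 7.99 in female knockouts, against 8.77 to 9.05 in female controls, with every knockout array below every control array of its sex. The mean of 10 sinus epithelium markers lay between 11.40 and 11.61 on all arrays, and that of 11 mesenchyme markers other than collagens between 6.68 and 7.26. Of the defining mesenchyme markers, Pdgfra, Prrx1, Fbn1, Postn, Meox2 and Tcf21 did not pass the filter. In bulk tissue, fewer cells of a type and less RNA per cell cannot be told apart. The number of arrays limits the precision.

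Among the male controls, 2 arrays stood apart in their collagens. In male control 6 some of the fibrillar, FACIT and type VI chains were raised. Col1a1, the alpha 1 chain of type I collagen, read 8.97 there, against 7.25 to 7.73 in the other 5 male controls. Col3a1, the chain of type III, read 8.20, against 6.51 to 6.92, and Col1a2, the alpha 2 chain of type I, read 7.92, against 6.42 to 6.88. These 3 chains lay 1.51, 1.45 and 1.34 above the mean of the others on the log2 scale. Col12a1 and Col14a1, the FACIT chains known to bind type I fibrils, lay 1.37 and 1.23 above it. Col5a2, a type V chain, followed at 0.56 and Col6a3, a type VI chain, at 0.54. These 7 of 42 collagens exceeded a difference of 0.5, which 1.63% of all genes did. Male control 6 had been picked out for its raised fibrillar collagens. This share, and the counts for that array below, are thus a description and support nothing about it.

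The rest of the family differed less and in both directions. Over all 42 collagens, male control 6 was above all 5 other male controls for 14 (17.9% of all genes) and below all 5 for another 14 (21.0%). It was the highest of all 22 arrays for 11 collagens (5.93% of all genes): Col1a1, Col1a2, Col2a1, Col3a1, Col5a2, Col6a1, Col6a2, Col6a3, Col12a1, Col14a1 and Col23a1. It was also the lowest of all 22 for 12 collagens (10.1% of all genes). By class, 5 of 11 fibrillar chains, 3 of 5 type VI chains, 2 of 9 FACIT chains and none of 6 type IV chains were above all other male controls. Markers of some other cells were also high on that array. The mean of 10 smooth muscle markers was 7.20 in male control 6, against at most 6.31 in the other male controls, and that of the mesenchyme markers 7.26, against at most 6.94. Of the 10 smooth muscle markers 8 were above all other male controls, with a median difference of 0.72. Of the 11 mesenchyme markers 6 were, with differences from -0.11 to 1.89 and a median of 0.31, so that list was uneven too. The mean of 5 endothelium markers was 6.19, against at most 5.86. Of these 5 markers, 3 were above all other male controls. They differed from the mean of the other male controls by 0.093 to 1.89, with a median of only 0.24, so the list's mean was uneven in its members. The endothelium markers Pecam1, Kdr, Tek, Emcn and Erg did not pass the filter. Of 6 cartilage markers none was above the other male controls and 4 were below all of them. The means of the blood and immune markers (5.93) and of the nerve and glia markers (6.12) lay within the range of the other male controls. The part of any of these cells in the collagen values was not tested.

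Male control 4 was the highest of the 22 arrays for 16 collagens, against 10.3% of all genes. They were Col4a1 to Col4a4, Col5a3, Col6a5, Col9a1 to Col9a3, Col11a2, Col13a1, Col16a1, Col22a1, Col24a1, Col26a1 and Col27a1. Its median deviation from the mean of its group was 0.14 over the 42 collagens, against 0.0022 over all genes. Among the knockouts, male knockout 4 was the lowest of the 22 arrays for 12 collagens, against 4.26% of all genes. Its median deviation was -0.10, against 0.0021 over all genes, and that of female knockout 4 was -0.11, against -0.025. Upward shifts of like size were seen in male knockout 3 (0.10, against -0.0068 over all genes) and female control 5 (0.094, against -0.0037). Differences of the collagens in males are given with all arrays. For those of at least 0.05 on the log2 scale the value without male control 6, or without male controls 4 and 6, is added where it turns the sign or moves the size by over 1.5 times. Over the 41 collagens tested in males, the sign of the difference turned for 6 without male control 6, all of them at most 0.028 in size with all arrays, and for 11 without both. Both arrays were chosen after their collagens had been seen, so these turns describe their weight and are no independent check.

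**Figure D1:**
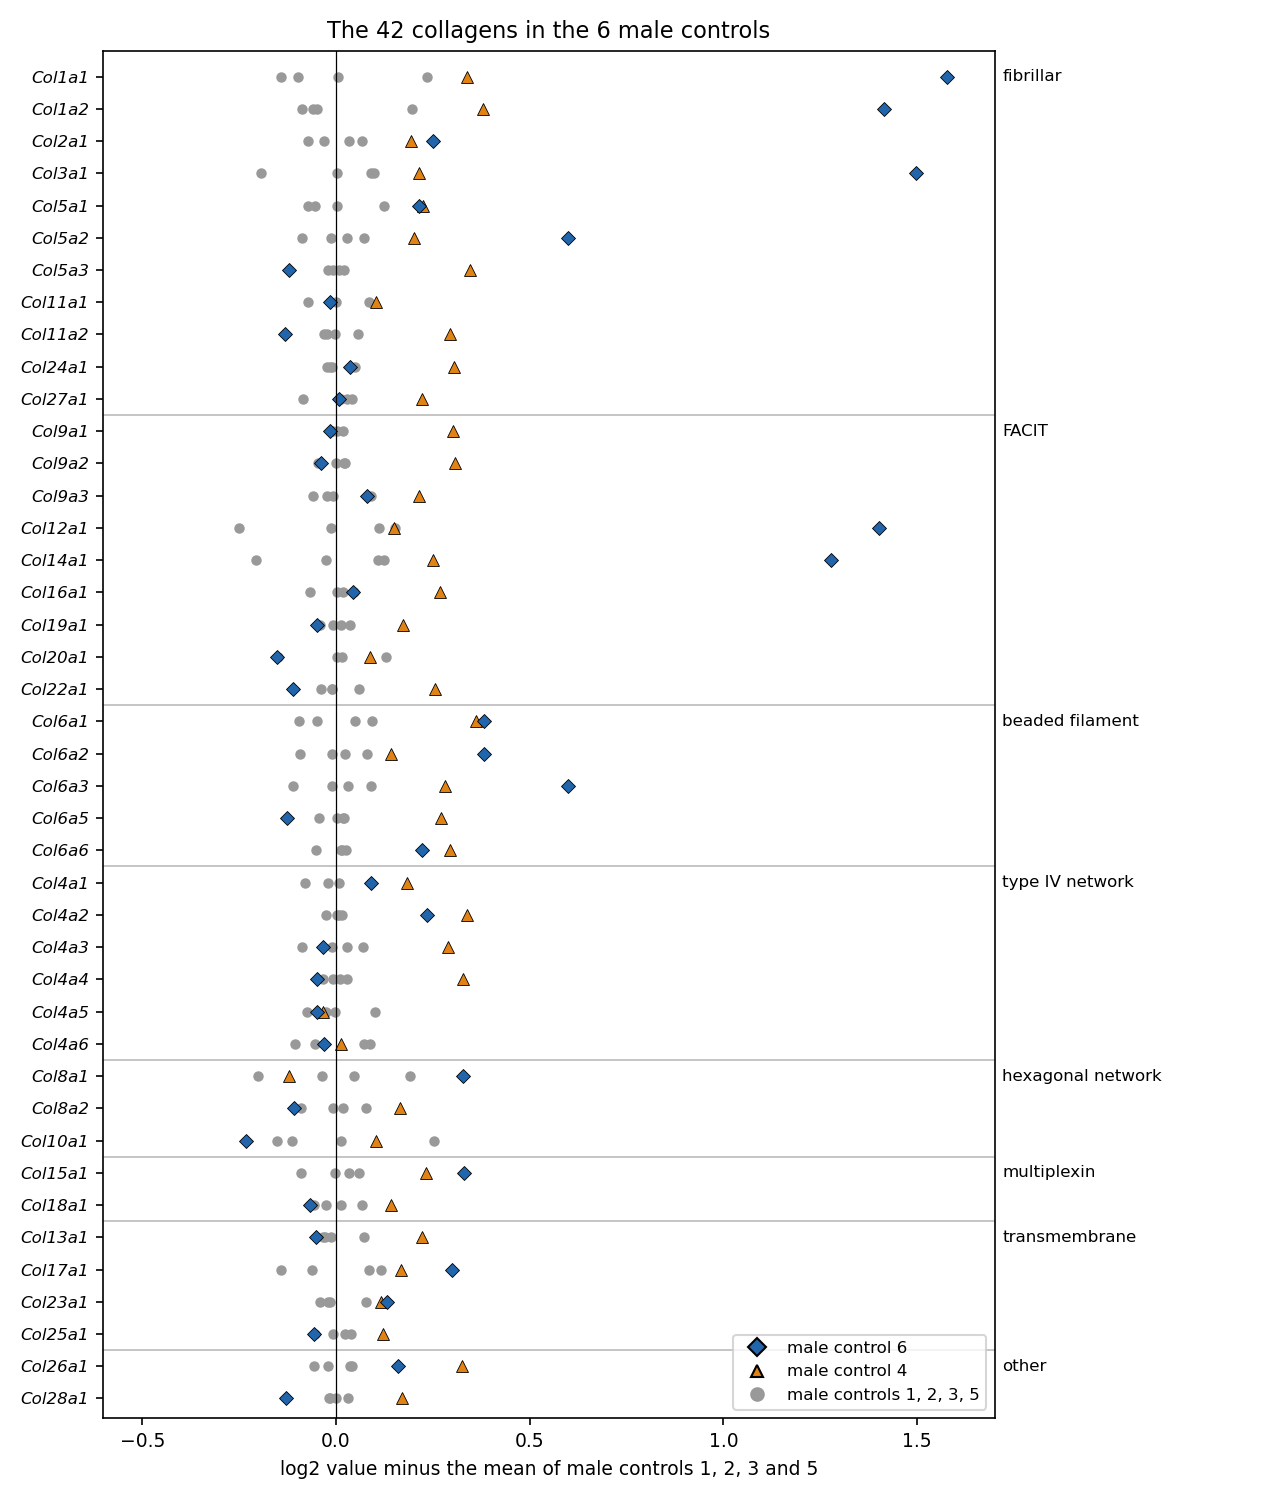
The 42 collagens by class in the 6 male controls, as the log2 value minus the mean of male controls 1, 2, 3 and 5. Male control 6 (blue diamonds) stands far to the right for Col1a1, Col1a2, Col3a1, Col12a1 and Col14a1, whereas male control 4 (orange triangles) lies moderately to the right of the grey points of the other 4 for most collagens, with Col4a5, Col4a6 and Col8a1 among the exceptions.

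Between knockouts and controls 1 collagen passed the test, Col14a1, which was lower in knockouts. In males it was 1 of 41 tested (2.44%), where 0.199% of all genes passed an adjusted p of 0.05 in limma. In the mean of both sexes it was again 1 of 41, where 0.247% of all genes passed. In females no collagen passed, where 0.0315% of all genes did. At an unadjusted p under 0.05, limma held 8 collagens in males (19.5%, against 6.27% of all genes), 2 in females (4.88%, against 5.46%) and 8 in the mean of both sexes (19.5%, against 7.19%). The 8 in males were Col2a1, Col4a1, Col4a2, Col4a5, Col9a3, Col12a1 and Col14a1, with negative differences, and Col18a1, with a positive one. Without male control 6 the count in males was 6 (14.6%, against 5.93% of all genes), with Col9a3 and Col12a1 no longer among them. The difference of Col9a3 hardly moved, at -0.11 without that array (unadjusted p = 0.0588) and -0.12 with it (unadjusted p = 0.0348). Without male controls 4 and 6 the count was 5 (12.2%, against 8.82% of all genes), with Col4a2 gone as well.

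The collagens were split between positive and negative differences. The median log2 fold change, knockout over control, was -0.013 over the 41 collagens in males, against 0.011 over all genes, and -0.0075 in females, against 0.0083. It was negative for 23 collagens in males (56.1%, against 43.3% of all genes) and for 27 in females (65.9%, against 45.2%). In 28 collagens in males and 36 in females its size was under 0.1. Without male controls 4 and 6 the sign in males turned for 11 of the 41 collagens, each from negative to positive. The median in males was then 0.039, against 0.011 over all genes. Those arrays were chosen after seeing the data. Male control 4 was the highest of all arrays for 16 collagens, and male control 6 the highest for 11 and the lowest for 12. Leaving out an array high in a collagen raises its difference by construction. Male knockout 4, the lowest of all arrays for 12 collagens, was kept. The turned signs and this median are thus no independent check of the direction. The median standard error over the collagens was 0.062 in males and 0.068 in females.

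**Figure D2:**
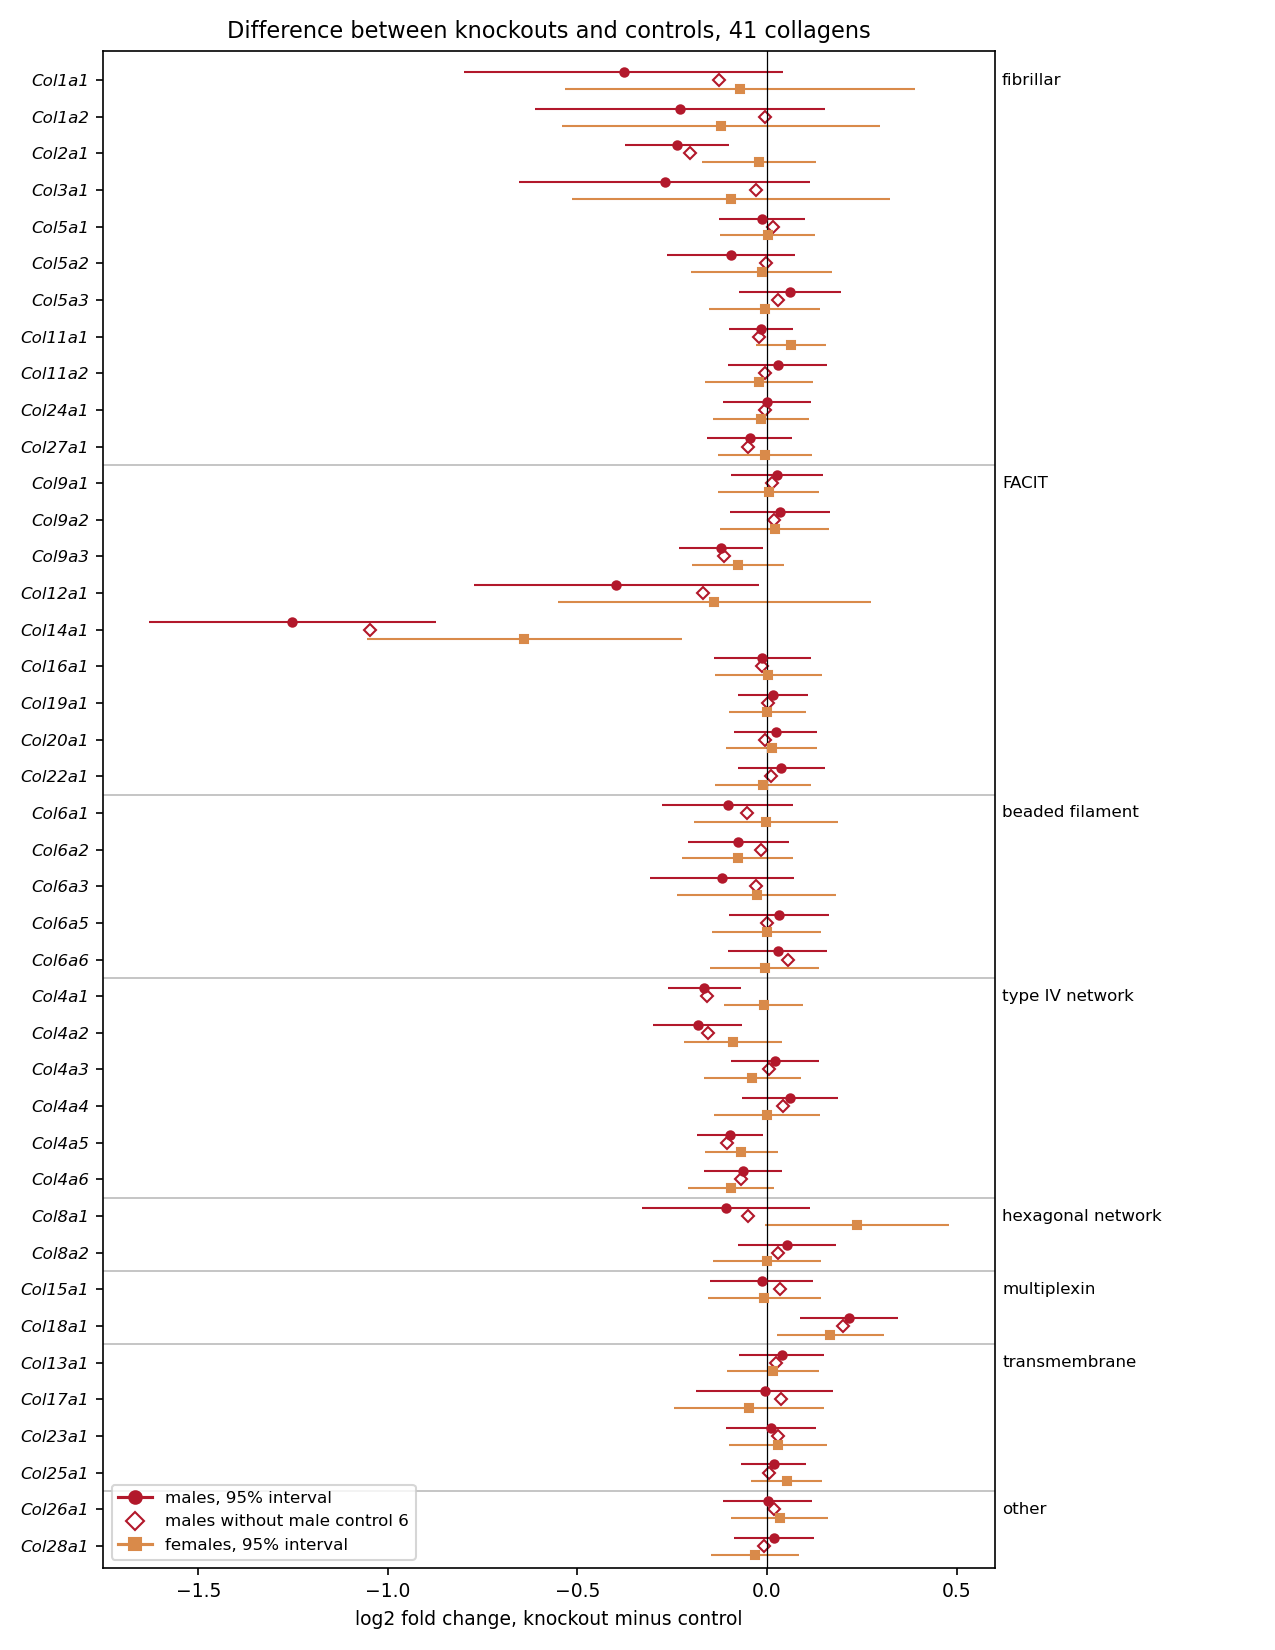
The log2 fold change of knockouts over controls for 41 collagens by class, in males (dark red circles with 95% intervals), in males without male control 6 (open diamonds) and in females (orange squares with 95% intervals). Col14a1 lies far to the left at -1.25 in males and -0.64 in females, Col18a1 lies to the right in both sexes, and the diamonds of Col1a1, Col1a2, Col3a1 and Col12a1 lie nearer to 0 than the circles.

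Col14a1 encodes collagen XIV, a FACIT collagen that binds to the surface of fibrils. Male knockouts read 5.59, 5.92 and 6.19 (lowest, median and highest), against 6.70, 7.02 and 8.19 in male controls. All 6 male knockouts lay below all 6 male controls, a separation found in 0.420% of all genes. Female knockouts read 6.78, 7.09, 6.76, 6.57 and 6.87, against 7.90, 7.34, 7.63, 7.00 and 7.39 in female controls. Female knockout 2 lay above female control 4, and otherwise the female knockouts lay below the female controls. The log2 fold change in males was -1.25 (SE 0.18, 95% interval -1.63 to -0.87, adjusted p = 0.00127 in limma), a level 2.38-fold lower. The two-sided exact permutation test of the male arrays gave p = 0.00216, the smallest that 924 regroupings allow.

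The difference of Col14a1 in males did not rest on male control 6. Without that array it was -1.05 (adjusted p = 0.000498), and without male controls 4 and 6 it was -1.0 (adjusted p = 0.00273). With the mean of the mesenchyme markers as a covariate it was -1.24 (adjusted p = 0.000116). That covariate left Col1a1 at -0.36 and Col3a1 at -0.25 in males, against -0.13 and -0.028 without male control 6. The covariate thus cannot show whether a difference rests on that array. In females the log2 fold change of Col14a1 was -0.64 (SE 0.20, 95% interval -1.06 to -0.22, adjusted p = 0.689) and did not pass. The male effect minus the female effect was -0.61 (SE 0.27, adjusted p = 0.997), so a difference between the sexes was not shown. It was -0.41 without male control 6 and -0.36 without male controls 4 and 6. Over both sexes Col14a1 was 1.93-fold lower (-0.95, SE 0.14, adjusted p = 0.000638).

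The other 8 FACIT chains were not called in knockouts against controls. Col12a1 encodes collagen XII, a fibril-binding relative of collagen XIV. It read 5.61, 5.75 and 6.29 in male knockouts (lowest, median and highest), against 5.70, 6.08 and 7.35 in male controls, with overlap. Its log2 fold change in males was -0.40 (SE 0.18, adjusted p = 0.766), -0.17 without male control 6 and -0.14 without male controls 4 and 6. Col9a3, a chain of the cartilage collagen IX, differed by -0.12 (SE 0.053, adjusted p = 0.733) in males, and by -0.071 without male controls 4 and 6. The remaining 6 chains (Col9a1, Col9a2, Col16a1, Col19a1, Col20a1 and Col22a1) had log2 fold changes between -0.013 and 0.038 in males and between -0.010 and 0.020 in females.

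Col18a1 had the largest positive log2 fold change among the 41 collagens in males. It encodes collagen XVIII, a heparan sulfate proteoglycan of basement membranes from which endostatin is cut. Male knockouts read 8.36, 8.45 and 8.78 (lowest, median and highest), against 8.20, 8.26 and 8.41 in male controls. Male knockouts 2 and 6 lay below male control 4, and otherwise the male knockouts were above the male controls. Female knockouts read 8.67, 8.67, 8.67, 8.64 and 8.69, against 8.48, 8.56, 8.59, 8.59 and 8.29 in female controls. All 5 female knockouts lay close together above all female controls, a separation found in 1.39% of all genes. These log2 fold changes were 0.22 (SE 0.062, adjusted p = 0.329) in males and 0.17 (SE 0.068, adjusted p = 0.871) in females. In the mean of both sexes it was 0.19 (SE 0.046, 95% interval 0.10 to 0.29, adjusted p = 0.104). It passed in none of these 3 comparisons. Without male control 6 it was 0.20 in males. Col15a1, the other multiplexin, differed by -0.014 in males (0.033 without male control 6) and -0.0075 in females.

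RefSeq (GRCm38.p6) lists 2 starts for Col18a1, on the minus strand of chromosome 10, and both windows are shown because they differ in a promoter motif. Which start the probe set reads was not analysed here. Each runs 5′ to 3′ from 250 bases before to 50 bases after the start, and capitals mark the GC box, GGGCGG or its complement CCGCCC. The window at chr10:77166481-77166780 holds 3 matches and that at chr10:77113656-77113955 holds 0.
Col18a1, start with 3 matches: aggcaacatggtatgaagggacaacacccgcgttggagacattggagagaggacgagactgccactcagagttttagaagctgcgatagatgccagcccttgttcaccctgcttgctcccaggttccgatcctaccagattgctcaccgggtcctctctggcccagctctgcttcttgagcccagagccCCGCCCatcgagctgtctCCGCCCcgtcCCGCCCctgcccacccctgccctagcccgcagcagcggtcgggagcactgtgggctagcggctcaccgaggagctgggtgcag
Col18a1, start with 0 matches: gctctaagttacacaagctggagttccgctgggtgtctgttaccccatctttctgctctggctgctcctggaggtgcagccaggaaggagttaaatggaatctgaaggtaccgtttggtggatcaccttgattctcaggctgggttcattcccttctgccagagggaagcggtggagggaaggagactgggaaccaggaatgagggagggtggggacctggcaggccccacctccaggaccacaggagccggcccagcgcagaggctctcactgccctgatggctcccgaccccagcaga

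**Figure D3:**
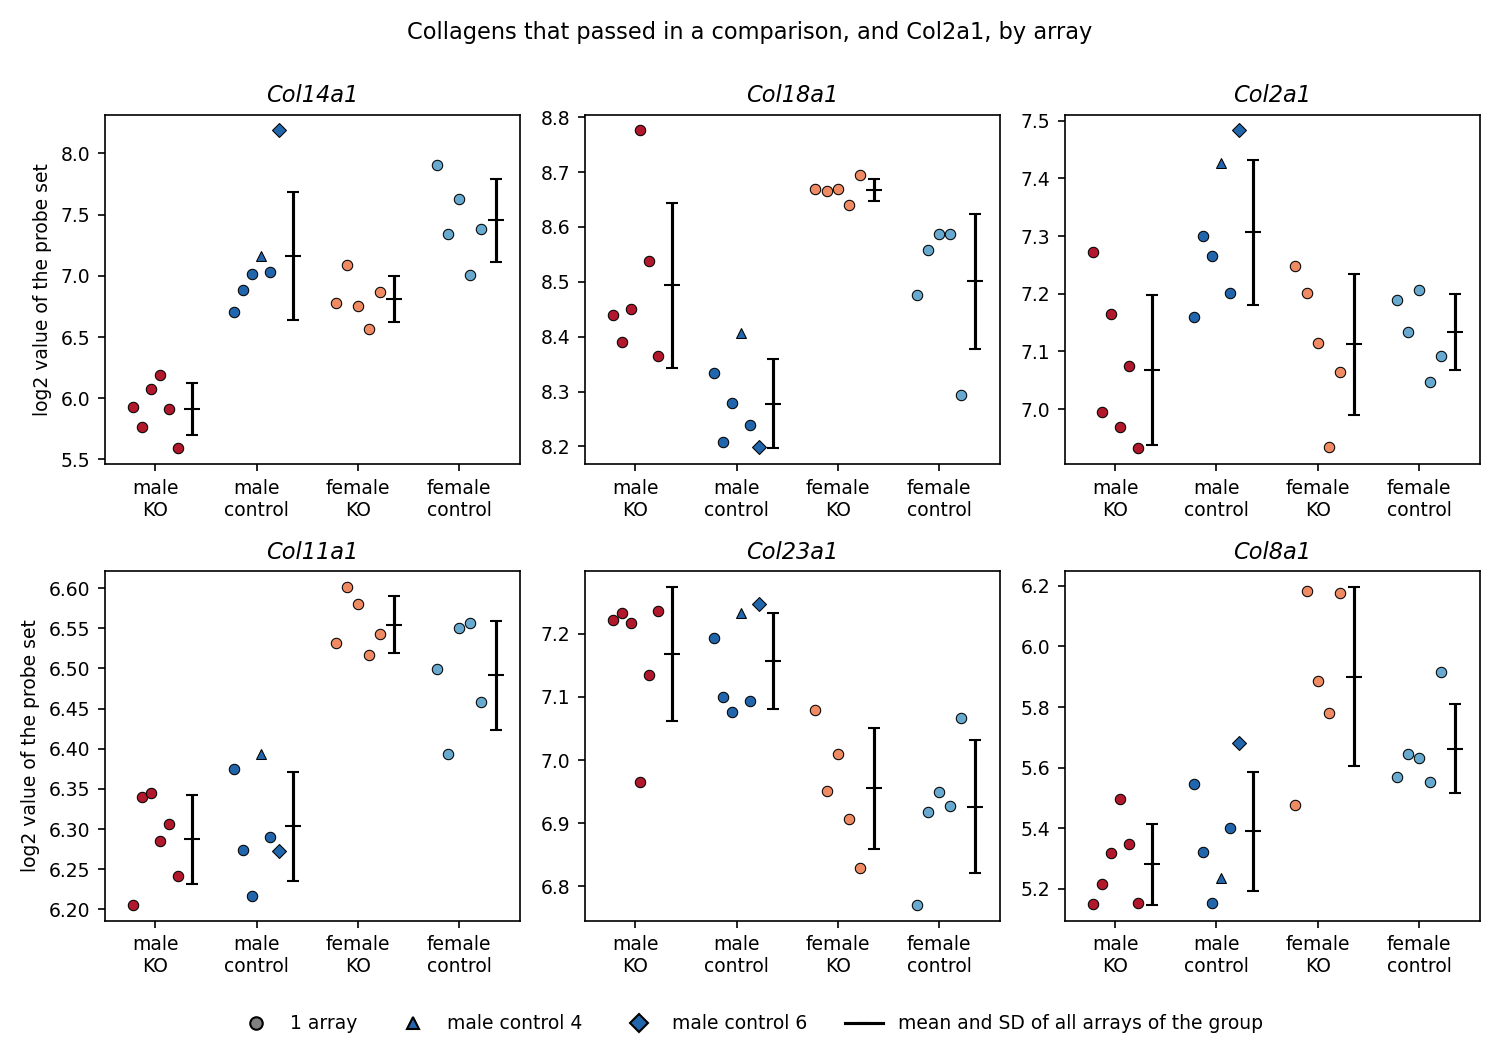
The log2 value of 6 collagens on each array of the male knockouts, male controls, female knockouts and female controls, with the mean and SD of each group as a bar. For Col14a1 the male knockouts end at 6.19 and the male controls begin at 6.70, while Col11a1 and Col8a1 are higher in most female arrays and Col23a1 is lower. Male control 6 (diamond) is the highest array for Col14a1, Col2a1 and Col23a1.

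None of the 11 fibrillar collagens was called in knockouts against controls. Col2a1, the main collagen of cartilage and a direct SOX9 target there, had the smallest p among them. Male knockouts read 6.93, 7.04 and 7.27 (lowest, median and highest), against 7.16, 7.28 and 7.48 in male controls. Male knockouts 1 and 3 reached into the controls, and the other 4 lay below them. Col2a1 differed by -0.24 (SE 0.066, adjusted p = 0.293) in males, -0.20 without male control 6 and -0.16 without male controls 4 and 6. Female knockouts read 7.25, 7.20, 7.11, 6.93 and 7.07, against 7.19, 7.13, 7.21, 7.05 and 7.09 in female controls, and differed by -0.021 with wide overlap. The male effect minus the female effect was -0.22 (SE 0.10, adjusted p = 0.997). Of the 7 collagens tested that SOX9 is known to activate in cartilage (Col2a1, Col9a1, Col9a2, Col9a3, Col11a1, Col11a2 and Col27a1), none was called, with a median of -0.016 in males and -0.0055 in females.

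Col1a1, Col1a2, Col3a1 and Col5a2 had negative differences in males whose size depended on the arrays that stood apart. Col1a1 read 7.08, 7.18 and 7.75 in male knockouts (lowest, median and highest), against 7.25, 7.51 and 8.97 in male controls. Male knockouts 3 and 5 were the highest knockouts for Col1a1, as they were for Col1a2 and Col3a1. The log2 fold change of Col1a1 was -0.38 (SE 0.20, adjusted p = 0.830), -0.13 without male control 6 and -0.059 without male controls 4 and 6. Col1a2 read 6.33, 6.45 and 7.03 in male knockouts, against 6.42, 6.58 and 7.92 in male controls. Its difference of -0.23 was -0.0061 without male control 6 and 0.070 without both. Col3a1 read 6.49, 6.63 and 7.13 in male knockouts, against 6.51, 6.80 and 8.20 in male controls. Its difference of -0.27 was -0.028 without male control 6 and 0.015 without both. Col5a2 encodes a chain of type V collagen, which starts fibrils, and lies beside Col3a1 on chromosome 1. It read 5.99, 6.09 and 6.22 in male knockouts, against 5.98, 6.11 and 6.66 in male controls. Its difference of -0.095 was -0.0016 without male control 6 and 0.039 without both. The sign for Col1a2, Col3a1 and Col5a2 in males thus turned when both arrays were left out, while their adjusted p was at least 0.892 with all arrays. Male control 6 was the highest of all arrays for these chains, so leaving it out raises their differences by construction.

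In females none of these 4 genes differed by more than its standard error. Col1a1 read 7.52, 7.68, 7.64, 7.61 and 7.62 in female knockouts, against 7.75, 7.36, 7.82, 7.98 and 7.52 in female controls (-0.071, SE 0.22, adjusted p = 1.0). Col1a2 read 6.54, 6.61, 6.55, 6.53 and 6.62 in female knockouts, against 6.65, 6.40, 6.80, 7.00 and 6.60 in female controls (-0.12, SE 0.20, adjusted p = 1.0). The controls were the more widely spread group for both type I chains and for Col3a1. Col3a1 read 6.74, 6.91, 6.92, 6.65 and 6.85 in female knockouts, against 6.93, 6.80, 6.93, 7.09 and 6.80 in female controls (-0.10, SE 0.20, adjusted p = 1.0). Col5a2 read 6.17, 6.29, 6.14, 6.14 and 6.17 in female knockouts, against 6.12, 6.13, 6.27, 6.17 and 6.29 in female controls (-0.014, SE 0.090, adjusted p = 1.0). The 2 groups overlapped in each.

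The other fibrillar chains were not called either. Col5a1, the main partner of Col5a2 in type V collagen, read 7.09, 7.18 and 7.25 in male knockouts (lowest, median and highest), against 7.04, 7.17 and 7.33 in male controls, and 7.18, 7.38, 7.21, 7.08 and 7.22 in female knockouts, against 7.22, 7.21, 7.23, 7.19 and 7.21 in female controls. Its groups overlapped in both sexes, with log2 fold changes of -0.013 in males (0.015 without male control 6) and 0.0026 in females. Col5a3, the third type V chain, read 6.45, 6.58 and 6.70 in male knockouts (lowest, median and highest), against 6.38, 6.50 and 6.84 in male controls, and 6.71, 6.67, 6.68, 6.49 and 6.54 in female knockouts, against 6.57, 6.59, 6.61, 6.58 and 6.76 in female controls. It differed by 0.060 in males, 0.028 without male control 6 and 0.10 without male controls 4 and 6, and by -0.0058 in females. Col11a2, a type XI chain of cartilage, read 6.70, 6.80 and 6.96 in male knockouts (lowest, median and highest), against 6.64, 6.76 and 7.07 in male controls, and 6.93, 6.90, 6.90, 6.73 and 6.75 in female knockouts, against 6.81, 6.86, 6.81, 6.83 and 7.00 in female controls. It differed by 0.028 and -0.020. In Col5a3 and Col11a2 male control 4 was the highest male control and male control 6 the lowest.

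Col24a1 and Col27a1 encode fibrillar chains with a shorter, interrupted helix. Col24a1 read 5.85, 5.92 and 6.03 in male knockouts (lowest, median and highest), against 5.86, 5.89 and 6.18 in male controls, and 6.01, 6.02, 5.99, 5.83 and 5.88 in female knockouts, against 5.93, 5.95, 5.99, 5.86 and 6.08 in female controls. It differed by -0.00076 in males and -0.016 in females. Col27a1 read 6.91, 7.08 and 7.17 in male knockouts (lowest, median and highest), against 6.98, 7.08 and 7.29 in male controls, and 7.19, 7.20, 7.07, 6.98 and 7.04 in female knockouts, against 7.07, 7.05, 7.11, 7.07 and 7.23 in female controls. It differed by -0.045 in males and -0.0055 in females. Col11a1, whose arrays are given with the sexes below, differed by -0.016 in males and 0.063 in females. Over the 11 fibrillar chains the median was -0.045 in males, -0.0061 without male control 6, and -0.016 in females.

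Type IV collagen is the class that epithelia lay down in their own basement membrane. None of its 6 chains was called. The log2 fold change was negative for 4 of them in males and 6 in females, where 43.3% and 45.2% of all genes were negative. In females that of Col4a1 was only -0.0092 and that of Col4a4 only -7e-05. The chains are encoded in neighbouring pairs. Col4a1 and Col4a2, whose products form the network present in all basement membranes, lie on chromosome 8 with starts 21 bases apart and are read in opposite directions. Col4a1 read 6.73, 6.88 and 6.97 in male knockouts (lowest, median and highest), against 6.91, 7.04 and 7.17 in male controls. Col4a2 read 7.06, 7.13 and 7.26 in male knockouts, against 7.20, 7.24 and 7.57 in male controls. For both genes only male knockout 4 reached into the controls. The log2 fold change in males was -0.17 (SE 0.046, adjusted p = 0.313) for Col4a1 and -0.18 (SE 0.057, adjusted p = 0.437) for Col4a2.

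For Col4a2 the highest male controls were the 2 that stood apart, and without them its difference was -0.088, while that of Col4a1 was -0.12. Female knockouts read 6.98, 7.05, 6.89, 6.94 and 6.96 for Col4a1, against 6.92, 7.00, 7.02, 6.95 and 6.97 in female controls, a difference of -0.0092. For Col4a2 female knockouts read 7.15, 7.16, 7.11, 7.14 and 7.07, against 7.13, 7.25, 7.34, 7.16 and 7.21 in female controls, a difference of -0.090 (SE 0.062). The groups overlapped for both genes. In the mean of both sexes the log2 fold change was -0.088 (SE 0.034, adjusted p = 0.523) for Col4a1 and -0.14 (SE 0.042, adjusted p = 0.303, and -0.089 without male controls 4 and 6) for Col4a2. The male effect minus the female effect of Col4a1 was -0.16 (SE 0.069, adjusted p = 0.997).

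The start windows of Col4a1 and Col4a2 (RefSeq, GRCm38.p6) are shown because the 2 genes share their start region and had like differences in males. The window of Col4a1 lies at chr8:11312777-11313076 on the minus strand and that of Col4a2 at chr8:11312555-11312854 on the plus strand. Each runs 5′ to 3′ from 250 bases before to 50 bases after the start, and capitals mark the 78 bases that both windows hold, read on opposite strands. GC made up 74.0% of the Col4a1 window and 73.7% of the Col4a2 window.
Col4a1: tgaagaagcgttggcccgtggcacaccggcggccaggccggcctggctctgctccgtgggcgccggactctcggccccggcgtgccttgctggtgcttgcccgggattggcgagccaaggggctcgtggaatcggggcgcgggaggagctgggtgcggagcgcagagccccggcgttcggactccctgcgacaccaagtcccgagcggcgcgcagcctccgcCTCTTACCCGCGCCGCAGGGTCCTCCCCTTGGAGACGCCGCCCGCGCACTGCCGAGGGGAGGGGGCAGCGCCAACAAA
Col4a2: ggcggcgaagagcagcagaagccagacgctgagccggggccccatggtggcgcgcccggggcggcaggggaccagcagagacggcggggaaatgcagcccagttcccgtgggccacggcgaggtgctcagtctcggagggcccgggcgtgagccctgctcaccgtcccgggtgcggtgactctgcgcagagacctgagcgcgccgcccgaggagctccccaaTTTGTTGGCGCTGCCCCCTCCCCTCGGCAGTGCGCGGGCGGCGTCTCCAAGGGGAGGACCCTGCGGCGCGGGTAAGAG

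Col4a5 and Col4a6, whose products pair in the basement membranes of epithelia and smooth muscle, lie on the X chromosome with starts 1343 bases apart. Col4a5 read 7.66, 7.72 and 7.81 in male knockouts (lowest, median and highest), against 7.76, 7.80 and 7.94 in male controls. Only male knockout 1 reached into the controls. It differed by -0.10 (SE 0.042, adjusted p = 0.713) in males and by -0.11 without male controls 4 and 6. In females Col4a5 differed by -0.068 and Col4a6 by -0.10, and in males Col4a6 differed by -0.062. In the mean of both sexes the values were -0.083 (SE 0.031, adjusted p = 0.474) for Col4a5 and -0.079 (SE 0.037, adjusted p = 0.666) for Col4a6. Col4a3 and Col4a4, neighbours on chromosome 1 whose products form the network of the kidney filter, differed by 0.021 and 0.061 in males. Without male controls 4 and 6 Col4a4 differed by 0.11. In females Col4a3 differed by -0.038 and Col4a4 by -7e-05. The median over the 6 chains was -0.080 in males and -0.053 in females, against 0.011 and 0.0083 over all genes.

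**Figure D4:**
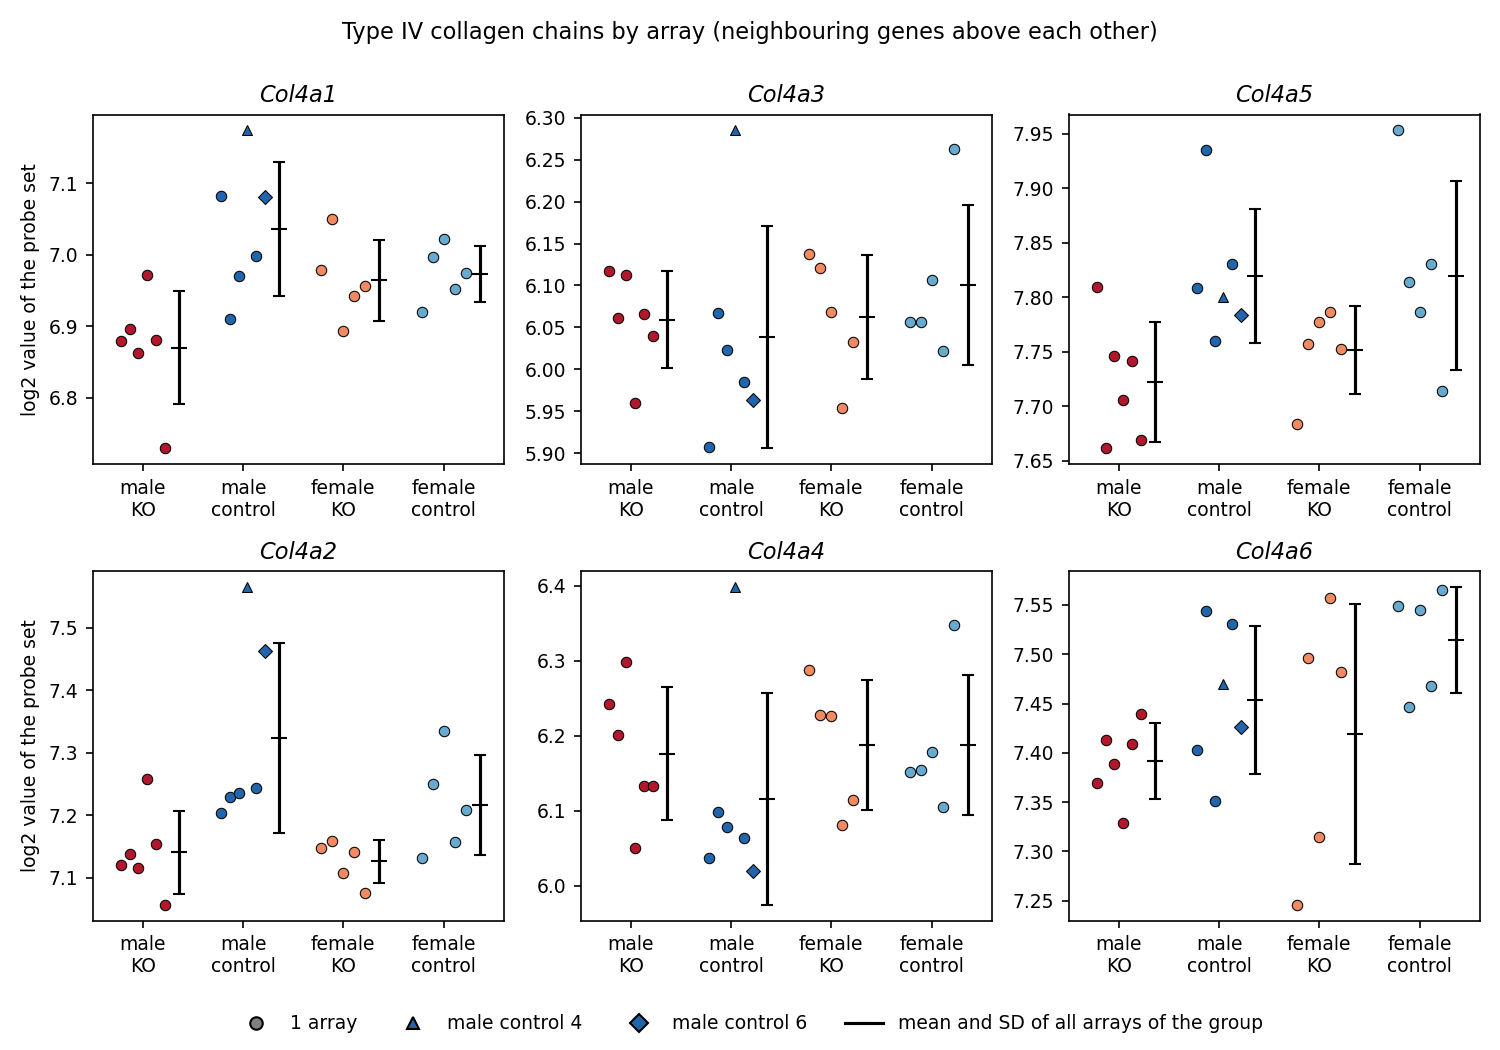
The log2 value of the 6 type IV chains on each array of the 4 groups, with neighbouring genes above each other and the mean and SD of each group as a bar. Most male knockouts lie below the male controls for Col4a1, Col4a2 and Col4a5, the groups of Col4a3 and Col4a4 lie across each other, and male control 4 (triangle) is the highest array for Col4a1 to Col4a4.

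Type VI collagen, which forms beaded filaments around cells, had no member called. Col6a2 had the smallest p of its class in the mean of both sexes. Col6a2 read 6.34, 6.48 and 6.70 in male knockouts (lowest, median and highest), against 6.38, 6.53 and 6.86 in male controls, and 6.49, 6.50, 6.49, 6.38 and 6.44 in female knockouts, against 6.46, 6.50, 6.58, 6.54 and 6.59 in female controls. The groups overlapped in both sexes, and the mean difference was -0.076 (SE 0.048, adjusted p = 0.832). Without male control 6 it was -0.046. In males Col6a2 differed by -0.075, -0.016 without male control 6 and 0.012 without male controls 4 and 6. Col6a1, its neighbour on chromosome 10, and Col6a3 differed by -0.10 and -0.12 in males, by -0.052 and -0.028 without male control 6, and by 0.020 and 0.028 without male controls 4 and 6. Col6a5 and Col6a6, neighbours on chromosome 9, differed by 0.031 and 0.028.

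None of the membrane-spanning collagens was called between knockouts and controls. Col17a1, the hemidesmosome collagen that anchors basal epithelial cells, differed by -0.0062 (SE 0.087, adjusted p = 0.997) in males, 0.038 without male control 6, and -0.047 (SE 0.10, adjusted p = 1.0) in females. Col25a1, the member of smallest p in this class, read 5.81, 5.89 and 5.96 in male knockouts (lowest, median and highest), against 5.81, 5.87 and 5.98 in male controls, and 5.95, 5.91, 5.91, 5.92 and 5.90 in female knockouts, against 5.79, 5.83, 5.87, 5.86 and 6.00 in female controls. Its mean difference was 0.035 (SE 0.031, adjusted p = 0.909). Col13a1 and Col23a1 differed by 0.039 and 0.011 in males. Col26a1, an emilin-like collagen outside the other classes, read 6.25, 6.35 and 6.45 in male knockouts (lowest, median and highest), against 6.20, 6.29 and 6.58 in male controls, and 6.43, 6.43, 6.38, 6.29 and 6.33 in female knockouts, against 6.26, 6.30, 6.40, 6.29 and 6.43 in female controls. Its mean difference was 0.018 (SE 0.042, adjusted p = 0.977). Col28a1, a beaded relative of type VI, differed by 0.018 in males and -0.032 in females. The arrays of all these genes overlapped between knockouts and controls in each sex.

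Genes that fold, export, trim, crosslink, bind or break down collagen were read as 7 lists with 52 tested members, and none was called in knockouts against controls. Among 16 enzymes and chaperones that modify the chains, Plod2, a lysyl hydroxylase, differed by 0.31 in males (adjusted p = 0.668). P3h2, a prolyl 3-hydroxylase, differed by -0.21, and Serpinh1, the collagen chaperone, by -0.15 (adjusted p = 0.685 and 0.704). Bmp1, which cuts the carboxy propeptide of fibrillar chains, differed by -0.12 (adjusted p = 0.651). Loxl1, 1 of 4 crosslinking genes tested, differed by -0.45 (SE 0.17, adjusted p = 0.636), and by -0.28 without male control 6. None of the 6 secretion genes had an unadjusted p under 0.05 in either sex.

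Prelp, a fibril-binding proteoglycan, came nearest to the threshold in males. It averaged 5.76 in male knockouts, against 6.08 in male controls, and 5.84 in female knockouts, against 5.99 in female controls (-0.32 in males, SE 0.079, adjusted p = 0.145). Itga2, an integrin chain of epithelial cells that binds collagen, had the smallest p of the lists in females. It averaged 5.61 in female knockouts, against 6.06 in female controls (-0.45, SE 0.13, adjusted p = 0.595). Mrc2, an uptake receptor for collagen, differed by -0.23 in males (adjusted p = 0.515). Mmp2, a gelatinase, differed by -0.49 in males (SE 0.17, adjusted p = 0.553), and by -0.29 without male control 6.

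Males and females differed in more collagens than knockouts and controls did, at about the rate of all genes. In knockouts 4 of 41 collagens passed (9.76%, against 7.19% of all genes), and in controls 3 (7.32%, against 6.94%). The calls were Col8a1, Col11a1, Col14a1 and Col23a1 in knockouts, and Col11a1, Col18a1 and Col23a1 in controls. The log2 difference, male minus female, was negative for 36 collagens in knockouts (87.8%, against 56.0% of all genes) and for 28 in controls (68.3%, against 55.2%). Most were small, with a size under 0.1 for 35 of the 41 collagens in knockouts and 32 in controls. Male knockout 4, the lowest of the 22 arrays for 12 collagens, was among the knockouts. The male minus female effect of the knockout itself was called for no collagen, where 0.00525% of all genes were. At an unadjusted p under 0.05 limma held 4 collagens in that comparison, Col2a1, Col4a1, Col8a1 and Col14a1 (9.76%, against 4.04%). Without male control 6, 1 of the 4 was left (2.44%, against 3.82%), Col14a1, whose difference shrank to -0.41 (-0.61 with all arrays). The differences of the other 3 kept their sign, at -0.18 for Col2a1 (-0.22 with all arrays), -0.15 for Col4a1 (-0.16) and -0.29 for Col8a1 (-0.35).

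Col11a1, a chain of the type XI collagen of cartilage, was lower in males in both genotypes. Male knockouts read 6.21, 6.30 and 6.34 (lowest, median and highest), against 6.53, 6.60, 6.58, 6.52 and 6.54 in female knockouts. Male controls read 6.22, 6.28 and 6.39, against 6.50, 6.39, 6.55, 6.56 and 6.46 in female controls. The sexes lay wholly apart in knockouts, and in controls the highest male and the lowest female touched at 6.39 without crossing, where 5.82% and 5.64% of all genes were so separated. The male minus female difference was -0.27 (SE 0.043, adjusted p = 0.000159) in knockouts, and -0.19 (SE 0.043, adjusted p = 0.00638) in controls. Two-sided exact permutation tests gave p = 0.00216 in knockouts and p = 0.00433 in controls.

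Col23a1, a membrane-spanning collagen, was higher in males in both genotypes. Male knockouts read 6.96, 7.22 and 7.24 (lowest, median and highest), against 7.08, 6.95, 7.01, 6.91 and 6.83 in female knockouts. Male controls read 7.08, 7.15 and 7.25, against 6.77, 6.92, 6.95, 6.93 and 7.07 in female controls. Only male knockout 4 lay among the females of its genotype, and the controls did not overlap. The difference was 0.21 (SE 0.059, adjusted p = 0.0285) in knockouts (exact permutation p = 0.0108), and 0.23 (SE 0.059, adjusted p = 0.0173) in controls (exact permutation p = 0.00216). The call in knockouts was lost when any 1 of male knockouts 1, 2, 3 and 6 or female knockouts 2, 4 and 5 was left out, at differences of 0.18 to 0.21 and adjusted p of at most 0.0937. The call in controls was lost without female control 1 (0.19, adjusted p = 0.0703) and without male controls 4 and 6 (0.19, adjusted p = 0.0847).

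Col8a1, a short-chain collagen known from vessel walls and the cornea, was lower in male than in female knockouts. Male knockouts read 5.15, 5.27 and 5.50 (lowest, median and highest), against 5.48, 6.18, 5.89, 5.78 and 6.18 in female knockouts. Female knockout 1 lay among the males and the other 4 above them. The difference was -0.62 (SE 0.11, adjusted p = 0.000699), a level 1.54-fold lower (exact permutation p = 0.00433). The male knockouts read near the array medians of 5.1 to 5.27, the limit of the filter, so the fold is uncertain. Male controls read 5.15, 5.36 and 5.68, against 5.57, 5.65, 5.63, 5.55 and 5.92 in female controls, with male control 6 the highest male and a difference of -0.27 (SE 0.11, adjusted p = 0.171). Within a sex, knockouts differed from controls by -0.11 in males and 0.24 in females (adjusted p = 0.916 and 0.913), and by -0.050 in males without male control 6. The male effect minus the female effect was -0.35 (SE 0.16, adjusted p = 0.997). Col8a2, which encodes a related chain of type VIII, differed by 0.052 in males (0.029 without male control 6) and 0.00066 in females.

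Col14a1 was 1.87-fold lower in male than in female knockouts (-0.90, SE 0.19, adjusted p = 0.00344). All male knockouts lay below all female knockouts, with an exact permutation p of 0.00216. In controls the difference was -0.29 (SE 0.19, adjusted p = 0.444) with all arrays, and -0.49 without male control 6 (adjusted p = 0.0301), where it passed. The controls without that array held 3 calls (Col11a1, Col14a1 and Col23a1), where 6.29% of all genes passed. The group means were 5.91 ± 0.21 in male knockouts, 6.81 ± 0.19 in female knockouts, 7.16 ± 0.53 in male controls and 7.45 ± 0.34 in female controls (SD, n = 6, 5, 6 and 5).

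Col18a1 was lower in male than in female controls (-0.22, SE 0.065, adjusted p = 0.0385, exact permutation p = 0.0130) and differed by -0.17 (SE 0.065, adjusted p = 0.130) in knockouts. The call in controls was lost without any 1 of male controls 2, 3, 5 and 6 or female controls 1, 2, 3 and 4, at differences between -0.23 and -0.20 and adjusted p of at most 0.101. In knockouts the difference passed without male knockout 4, which had the highest Col18a1 of all arrays (-0.23, adjusted p = 0.00914). Of the X-linked chains, Col4a5 differed by -0.029 between the sexes in knockouts and Col4a6 by -0.028, and in controls Col4a6 differed by -0.061.

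Among the genes that process or bind collagen, 9 of 52 tested differed between the sexes in knockouts (17.3%, against 7.19% of all genes) and 7 in controls (13.5%, against 6.94%). P4hb, the shared subunit of prolyl 4-hydroxylase, was higher in males by 0.18 in knockouts (adjusted p = 0.0289) and 0.21 in controls (adjusted p = 0.00891). Sec24d, a coat protein for collagen export, was higher by 0.24 in knockouts and 0.24 in controls. P4ha2, a catalytic subunit of prolyl 4-hydroxylase, differed by -0.33 in knockouts (adjusted p = 0.0493, and 0.0514 without male control 6) and -0.52 in controls (adjusted p = 0.00152). Adgrg1, a receptor for collagen III in the brain, differed by -0.20 and -0.27. In knockouts Sec23a and Lum were also higher in males and P4ha3, Bmp1 and Mmp2 lower, and in controls P4ha1, Dcn and Fn1 were lower in males. Lum and Dcn also stand among the mesenchyme markers. Lum, a proteoglycan that spaces fibrils, differed by 0.57 in knockouts (adjusted p = 0.00743) and Mmp2 by -0.65 (adjusted p = 0.0267). In controls Mmp2 differed by -0.36 (adjusted p = 0.283) with all arrays and by -0.56 without male control 6, where it passed (adjusted p = 0.00372) and brought the count in controls to 8 (15.4%, against 6.29% of all genes).

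Start windows of 300 bases were found in RefSeq (GRCm38.p6) for 33 of the 42 collagens, 36 windows in all, and both strands were searched for short motifs. The GC box GGGCGG was in 21 of them (58.3%), among them windows of Col4a1, Col4a2, Col4a5, Col4a6, Col8a1, Col11a1 and Col23a1, against 35.7% of 32851 windows of all genes. The letters ACAAT, a core that SOX proteins can bind, were in 2 (5.56%, against 31.0%), those of Col3a1 and Col28a1. TATAAA was in 5 (13.9%, against 13.6%) and CCAAT in 11 (30.6%, against 37.4%). The median GC content was 60.0% over the collagen windows and 52.7% over all windows. Col1a1, Col2a1, Col4a3, Col5a2, Col9a3, Col12a1, Col14a1, Col22a1 and Col26a1 had no window in the table used.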

How the data were processed

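The deposited table held log2 values per probe set for 22 arrays, 1 column a sample; how the authors corrected, normalized and summarized them, and on which genome build, is not given in the sources used here. Gene names came from the platform's probe table, with 827 symbols updated through RefSeq. Of 72688 probe sets, 30439 had 1 symbol. A gene was tested when a probe set lay above the array's 50th percentile of transcript clusters on at least 5 arrays, and its probe set of highest mean was used. Differences on the log2 scale were fitted over all 22 arrays with limma 3.58.1 (R 4.3.3; lmFit and eBayes, 18 residual and 4.34 prior degrees of freedom), with p-values adjusted by Benjamini and Hochberg over 19050 genes and a threshold of 0.05. Called collagens also had a two-sided exact permutation test. The procedure was tested on simulated data. Plots used matplotlib 3.10.9 (Python 3.11.15), and start windows are those of RefSeq GRCm38.p6.

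Values by array are given for called collagens, all fibrillar collagens and, in each class, the member of smallest p in the mean effect of both sexes; Sox9 served as a check of the deletion, and pathway genes are named when called or among the 4 smallest p of their list. The members, lists and tests were chosen with earlier results of these data known. Replicate numbers did not pair the arrays: same-numbered arrays of different groups had correlations of their deviations from the group means between -0.42 and 0.28 (median -0.028, 31 pairs). The 33 alternatives were quantile normalization, median centring, no filter, a stricter filter (75th percentile), averaging all probe sets of each gene, a robust eBayes with a trend, a fit of only the groups compared, the replicate block, array weights, the mesenchyme marker mean as a covariate, leaving out each of 22 arrays, and leaving out male controls 4 and 6.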

Additional observations from a re-analysis of the deposited data

Results flagged for a closer look

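The arrays of 19 collagens were examined in each of the 4 groups, 76 sets in all, for a highest or lowest array that stood far from the others for the spread of its group. This was found in 12 sets, 4 of them in male control 6, and chance alone gives about 5% of sets. Male control 6 had been picked out for its raised fibrillar collagens, and the 19 genes hold all 11 fibrillar chains, so these counts are a description and support nothing about that array. In that array Col1a1 read 8.97 (next array of its group 7.73), Col1a2 7.92 (next 6.88), Col3a1 8.20 (next 6.92) and Col14a1 8.19 (next 7.16). Male control 4 stood apart for Col5a3 at 6.84 (next 6.52) and for Col24a1 at 6.18 (next 5.93). Male knockout 4 was low for Col23a1 at 6.96 (next 7.13).

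Female control 5 was high for Col5a3 at 6.76 (next 6.61), for Col8a1 at 5.92 (next 5.65) and for Col11a2 at 7.00 (next 6.86). Female knockout 2 was high for Col5a2 at 6.29 (next 6.17), and female knockout 1 for Col25a1 at 5.95 (next 5.92).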

How the results depend on the processing

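Col14a1 was called in males under all 33 alternatives, with log2 fold changes from -1.34 to -1.0 and adjusted p up to 0.0217. No collagen was called in females or for the male minus female effect under any. Array weights added Col18a1 in the mean of both sexes (2 collagens called, adjusted p = 0.0465). Leaving out male controls 4 and 6, chosen after seeing the data, turned the male log2 fold changes of Col1a2, Col3a1 and Col5a2 to 0.070, 0.015 and 0.039. Between male and female controls, 1 collagen was called under median centring (Col23a1) and 1 with the replicate block (Col11a1), with 1 to 3 when an array was left out and 1 (Col11a1) without female control 1. Between male and female knockouts the stricter filter gave 2 calls (Col14a1 and Col23a1), since Col8a1 and Col11a1 did not pass it and were not tested. With the replicate block, which the labels do not tie to litters, Col18a1 (-0.20) and Col23a1 (0.21) were not called in controls nor Col23a1 (0.20) in knockouts, and Col14a1 in males stayed at -1.25. Over all genes, calls in males (38) were 20 with only the groups compared, 18 without male controls 4 and 6, and 27 to 49 when an array was left out. Calls in females (6) were 3 under median centring, 3 with only the groups compared, 11 with array weights, and 2 to 8 when an array was left out. In the mean of both sexes (47) array weights gave 72. For the male minus female effect (1) the count was 0 under quantile normalization, median centring, no filter, trend and robust eBayes and without male controls 4 and 6, 2 with the replicate block, 2 with array weights, and 0 to 2 when an array was left out. The cause of these shifts was not tested.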
